A study of Homo sapiens with 8 samples.

Results

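The acidic histone chaperones are nuclear proteins with long runs of aspartate and glutamate that bind basic histones. The 8 genes described here encode prothymosin alpha (PTMA), parathymosin (PTMS), 3 acidic leucine-rich ANP32 proteins (ANP32A, ANP32B and ANP32E), SET, nucleophosmin (NPM1) and nucleolin (NCL). They were taken by gene symbol from the 56303 genes of the count table. The set was selected on measured values, because the input level, the IP over input of each arm and its change in these same 8 libraries were known when the genes were chosen. Those 3 measures are therefore given as a description, with no p for a member, and a count of members past a threshold is printed only beside the share of all genes past it.

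The libraries came from SK-N-BE(2), an established neuroblastoma cell line with MYCN amplification. One arm carried a control shRNA (sh-NC) and the other shRNA against METTL14 (shMETTL14), delivered with a lentiviral pLKO.1 vector and kept by puromycin selection. METTL14 is the RNA-binding partner of METTL3 in the complex that places N6-methyladenosine (m6A) on messenger RNA. Each arm had 2 numbered samples, called cultures here. Each number had 1 input library of fragmented polyadenylated RNA and 1 IP library of the fragments bound by an anti-m6A antibody. IP and input were matched by this number in the labels. The methods list a pair of hairpins against METTL14, and the labels do not say whether numbers 1 and 2 of shMETTL14 stand for separate cultures with 1 hairpin or for the different hairpins. Nor do they say how far apart the cultures were kept, so the spread between samples of an arm may be technical, and in shMETTL14 it may include a difference between hairpins.

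Total counts ran from 32027379 to 47205265 per library, and the 8 chaperone genes took 1.47 to 1.52% of the counts in the inputs and 1.73 to 1.95% in the IP libraries. At this depth the number of cultures, not counting error, sets the precision. METTL14 itself stood at 51.6 and 50.9 CPM (counts scaled to a common library size) in the sh-NC inputs and at 14.3 and 15.3 CPM in the shMETTL14 inputs, a log2 difference of -1.79 ± 0.0663 (SE, n = 2 cultures per arm, edgeR adjusted p = 1.28e-15). Among neuroblastoma markers, MYCN was at 4410 to 4600 CPM and HAND2 at 1031 to 1154 CPM in the inputs, while DBH was at 2.43 to 4.68 CPM. Of the markers of other cell types, PTPRC and PRRX1 stayed below 1 CPM, PECAM1 reached at most 6 counts and ALB had 0 counts, whereas EPCAM was at 5.14 to 5.70 CPM and COL1A1 at 54.6 to 92.4 CPM. A lower share of expressing cells and less RNA per cell cannot be told apart in such bulk libraries.

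Histone chaperones keep free histones from binding DNA and RNA out of place and hand them on to nucleosomes. Prothymosin alpha and parathymosin bind linker histone H1, ANP32E removes the variant H2A.Z from nucleosomes, and SET blocks histone acetylation and, like ANP32A, inhibits the phosphatase PP2A. Nucleophosmin and nucleolin also shuttle through the nucleolus and take part in the assembly of ribosomes. Several of these genes are known to be strongly transcribed in dividing cells, and PTMA, NCL and NPM1 are classical targets of MYC proteins.

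The genes lie on 6 chromosomes in GRCh38: PTMA at chr2:231706895-231713541 on the plus strand, NCL at chr2:231453531-231483641 on the minus strand, and NPM1 at chr5:171387116-171411137 on the plus strand. PTMS spans chr12:6765516-6770952 and ANP32B chr9:97983361-98015943, both on the plus strand, and SET spans chr9:128683424-128696400 on the plus strand. ANP32A spans chr15:68778535-68820897 and ANP32E chr1:150218417-150236156, both on the minus strand. The exons of 7 of the 8 genes overlapped no other listed gene. Those of PTMA shared 123 bases with the row of the small nuclear RNA gene U4, whose counts came to at most 0.0364% of those of PTMA.

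Promoter sequence is shown for one prothymosin, one ANP32 and one nucleolar gene, because these genes share very high transcript levels and a CCAAT box is a common element of active promoters. RefSeq windows of 250 bases before and 50 after a start (GRCh38.p14) were listed for 6 of the 8 genes, and PTMS and ANP32E were not among them. The letters CCAAT, or ATTGG on the other strand, were found in the windows of PTMA, ANP32A and NCL. They were also found in 1 of 2 windows of NPM1 and in 4 of 5 windows of SET, against 34.6% of 35116 listed windows. The 1 window of ANP32B had neither, so the motif was not common to all 6 genes. The E-box CACGTG, the motif bound by MYC proteins and many other factors and the same on both strands, was found in the window of ANP32B and in 2 of 5 windows of SET, against 7.26% of the windows. Neither motif can lie within the other. A match describes letters in this window and is no evidence of binding. The 150 bases before the start are given below for 3 genes, each 5′ to 3′ on the strand of its gene, with CCAAT or ATTGG in capitals. They are chr2:231708375-231708524 (plus) for PTMA, chr15:68820896-68821045 (minus) for ANP32A and chr2:231464485-231464634 (minus) for NCL. All 3 are genes with a match, and ANP32B, whose window had no match, was left out.
PTMA: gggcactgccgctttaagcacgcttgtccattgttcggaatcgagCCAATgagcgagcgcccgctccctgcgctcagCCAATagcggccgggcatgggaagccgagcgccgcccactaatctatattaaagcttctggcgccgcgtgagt
ANP32A: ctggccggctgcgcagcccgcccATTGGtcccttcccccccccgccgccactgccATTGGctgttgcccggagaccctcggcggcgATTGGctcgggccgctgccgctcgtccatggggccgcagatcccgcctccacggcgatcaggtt
NCL: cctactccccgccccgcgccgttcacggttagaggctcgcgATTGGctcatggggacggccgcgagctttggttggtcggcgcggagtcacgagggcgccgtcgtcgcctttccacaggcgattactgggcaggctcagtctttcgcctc

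In the input libraries all 8 genes were among the most abundant transcripts per kilobase, from the 97.3rd to the 99.9th percentile of the 22245 genes tested in the input libraries. The level per kilobase (RPKM, CPM divided by the merged exon length in kilobases) of PTMA was the highest at 1176 ± 12.4 in sh-NC (mean ± SD, n = 2), followed by NCL at 740 ± 22.9, NPM1 at 604 ± 24.6, PTMS at 487 ± 14.2 and ANP32B at 441 ± 13.6. SET followed at 220 ± 6.38 RPKM, then ANP32E at 130 ± 1.46 and ANP32A at 71.6 ± 0.140. In sh-NC no neighbours in this order overlapped between cultures, so PTMA stood above NCL, and ANP32B above ANP32E and ANP32A, beyond the spread. In shMETTL14 the order was the same, from PTMA at 1274 ± 42.3 to ANP32A at 77.6 ± 1.53 RPKM, but NPM1 at 606 ± 5.67 and PTMS at 581 ± 52.6 no longer differed beyond their spread. Exon lengths merge all listed transcripts, 7544 bases for ANP32A and 6929 for NCL against 1475 for PTMS, which lowers the level per kilobase of genes with long optional exons.

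**Figure D1:**
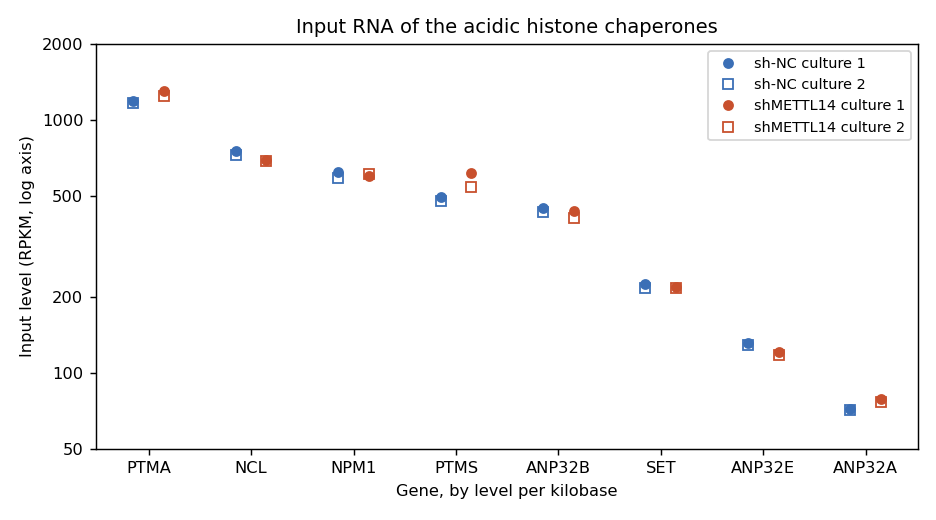
Input level of each gene in RPKM (log axis) in the 2 sh-NC cultures (blue) and the 2 shMETTL14 cultures (orange), 1 marker per culture, with genes in the order of their sh-NC level. PTMA is highest and ANP32A lowest in both arms, and the arms lie close together except for PTMS, whose 2 shMETTL14 cultures are above its sh-NC cultures and near those of NPM1.

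Between the arms the input levels of the chaperones moved little and in both directions. Of the 8 genes, 3 were called higher and 2 lower in shMETTL14 (adjusted p under 0.05 in the edgeR test over 22245 genes), where 11.7% of all genes were called higher and 12.3% lower. The members' median log2 difference was -0.01, and that of all genes was 0.00. These counts are read as description, since the members were chosen with this contrast known.

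The prothymosins were on the higher side. PTMS was at 733 and 704 CPM in the sh-NC cultures and at 912 and 802 CPM in the shMETTL14 cultures, a log2 difference of 0.25 ± 0.0411 (SE). The DESeq2 SE of this PTMS difference was larger, at 0.0948. Both shMETTL14 cultures lay above both sh-NC cultures, and the difference fell to 0.16 without shMETTL14 culture 1, the highest of the 4. PTMA was at 4002 and 3943 CPM in sh-NC and at 4405 and 4203 CPM in shMETTL14, a log2 difference of 0.12 ± 0.0273. Its arms did not overlap, but without shMETTL14 culture 1 its difference was 0.08 and no longer called.

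The ANP32 genes differed in direction from one another. ANP32A, the PP2A inhibitor, was at 541 and 539 CPM in sh-NC and at 594 and 578 CPM in shMETTL14, a log2 difference of 0.12 ± 0.0311 that was called. ANP32E, the H2A.Z chaperone, was at 472 and 464 CPM in sh-NC and at 434 and 423 CPM in shMETTL14, a log2 difference of -0.13 ± 0.0321 that was called. Neither gene's arms overlapped. ANP32B was at 833 and 797 CPM in sh-NC and at 810 and 758 CPM in shMETTL14, with overlapping arms and a log2 difference of -0.06 ± 0.0338. The call of ANP32A was lost without either shMETTL14 culture (0.10 without culture 1 and 0.13 without culture 2), that of ANP32E was lost without shMETTL14 culture 2 (-0.11), and ANP32B was called lower without sh-NC culture 2 (-0.09).

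SET was at 979 and 940 CPM in sh-NC and at 953 and 942 CPM in shMETTL14, a log2 difference of -0.02 ± 0.0302 with overlapping arms. NPM1 was at 2381 and 2247 CPM in sh-NC and at 2305 and 2336 CPM in shMETTL14, a log2 difference of 0.00 ± 0.0293, again with overlapping arms. NCL was at 5241 and 5017 CPM in sh-NC and at 4812 and 4761 CPM in shMETTL14, a log2 difference of -0.10 ± 0.0266 that was called, with arms that did not overlap. The call of NCL was lost when sh-NC culture 1, shMETTL14 culture 1 or shMETTL14 culture 2 was left out, with values of -0.07, -0.11 and -0.10. With no filter on low counts only 1 member, ANP32A, was called higher and 0 lower, beside 1082 and 1072 of the 37399 genes tested.

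The question put to the IP libraries was how strongly the fragments of each gene were recovered by the m6A antibody, relative to input. The IP over input, the ratio of the CPM of the IP and input library of a culture, covers the whole gene and does not locate a methylated site. In sh-NC it lay above 1 in both cultures for all 8 genes, and the log2 value was called above 0 for 8 of 8, where 29.1% of all 22953 genes were called higher and 29.8% lower. In shMETTL14 it was called above 0 for 7 of 8, all but ANP32B, where 28.9% of genes were called higher and 29.1% lower. The members' median log2 IP over input was 0.42 in sh-NC and 0.26 in shMETTL14, and that of all genes was -0.01 in both. The 253 other genes at or above the input level of the least abundant member, 449 CPM, had medians of 0.22 and 0.19. The median of abundant genes thus also lay above 0. Among these genes, in sh-NC, ANP32B, ANP32E and SET lay at the 54.9th, 56.9th and 58.9th percentile. ANP32A, PTMA, NCL and PTMS lay at the 67.2nd, 68.0th, 68.8th and 75.5th, and NPM1 at the 92.1st. Scaling by library size alone in place of TMM, edgeR's trimmed-mean scaling, moved the median of all genes to -0.14 and -0.13 and those of the members to 0.29 and 0.14. With that scaling 8 members were called above 0 in sh-NC and 6 in shMETTL14, beside 5358 and 5322 of all 22953 genes.

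NPM1 had the highest IP over input of the 8 in every culture, 1.53 and 1.80 in sh-NC, with 1.59 and 1.53 in shMETTL14, with log2 values of 0.73 ± 0.0371 and 0.64 ± 0.0371. Its arms overlapped. NCL, the other nucleolar chaperone, was at 1.28 and 1.46 in sh-NC and at 1.25 and 1.27 in shMETTL14, with log2 values of 0.45 ± 0.0343 and 0.33 ± 0.0342. Both shMETTL14 cultures of NCL were below both sh-NC cultures, by little against sh-NC culture 1.

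PTMS was at 1.29 and 1.60 in sh-NC and at 1.17 and 1.38 in shMETTL14, with log2 values of 0.52 ± 0.0472 and 0.34 ± 0.0469. The cultures of each arm lay far apart and the arms overlapped. Its log2 value in sh-NC was 0.37 without sh-NC culture 2, and that in shMETTL14 was 0.23 without shMETTL14 culture 2. Each SE given here is that of the edgeR fit, with a shared estimate of the spread. It is not the spread of the 2 cultures. For the sh-NC value of PTMS the DESeq2 SE was 0.116. PTMA was at 1.27 and 1.43 in sh-NC and at 1.16 and 1.24 in shMETTL14, with log2 values of 0.43 ± 0.0358 and 0.26 ± 0.0357 and no overlap between the arms.

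ANP32A was at 1.27 and 1.40 in sh-NC and at 1.16 and 1.23 in shMETTL14, with log2 values of 0.42 ± 0.0378 and 0.26 ± 0.0377. ANP32E was at 1.16 and 1.28 in sh-NC and at 1.07 and 1.12 in shMETTL14, with log2 values of 0.29 ± 0.0375 and 0.13 ± 0.0377. The arms of both genes were apart. The shMETTL14 log2 value of ANP32E was 0.11 without shMETTL14 culture 2. ANP32B had the lowest log2 value of the 8 in both arms and, on the log2 scale, the widest gap between sh-NC cultures. It was at 1.05 and 1.35 in sh-NC and at 0.975 and 1.12 in shMETTL14, with log2 values of 0.26 ± 0.0485 and 0.07 ± 0.0485. The DESeq2 SE of its sh-NC value was 0.123. Without sh-NC culture 2 the sh-NC value of ANP32B was 0.08 and no longer called, and without shMETTL14 culture 2 the shMETTL14 value was -0.03.

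SET was at 1.18 and 1.31 in sh-NC and at 1.167 and 1.170 in shMETTL14, with log2 values of 0.31 ± 0.0355 and 0.22 ± 0.0355. Its shMETTL14 cultures lay just below sh-NC culture 1, and sh-NC culture 2 stood above the other cultures.

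**Figure D2:**
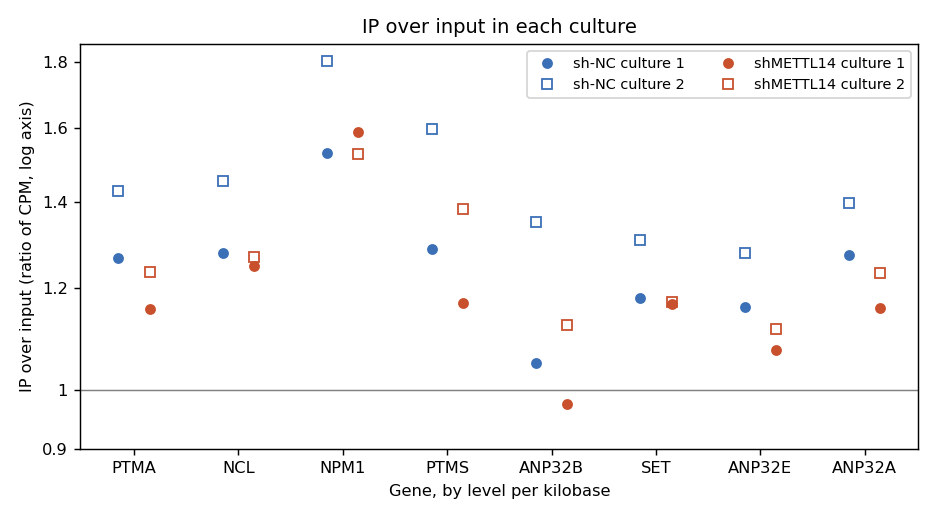
IP over input of each gene (ratio of CPM, log axis) in every culture, with the line at 1 marking equal TMM-scaled CPM in IP and input. NPM1 is highest with 1.53 to 1.80, and in sh-NC culture 2 (open blue square) the ratio is above that of sh-NC culture 1 for all 8 genes.

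The log2 difference in IP over input, shMETTL14 minus sh-NC, was below 0 for 8 of 8 members, where 50.4% of all genes were below 0. It was -0.19 ± 0.0686 on the log2 scale for ANP32B, -0.18 ± 0.0664 for PTMS, -0.17 ± 0.0505 for PTMA, -0.16 ± 0.0533 for ANP32A and -0.15 ± 0.0532 for ANP32E. The smallest changes were those of NCL at -0.12 ± 0.0484, NPM1 at -0.09 ± 0.0522 and SET at -0.09 ± 0.0502. The members' median was -0.16 and that of all genes -0.00. With errors of this size, and no test of differences among members, no order is read from these values.

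No member passed the adjusted threshold for this change, and 1 of all 22953 genes was called lower (0.00436%). At an unadjusted p under 0.05, 6 members were lower, all but SET and NPM1, where 3.31% of all genes were lower. DESeq2 called 0 genes in either direction. Both shMETTL14 ratios were below both sh-NC ratios for 5 members, PTMA, ANP32A, ANP32E, SET and NCL, where this held for 17.4% of the 22330 genes with a count in every library. For a single gene with 2 cultures per arm, an exact permutation test (two-sided) cannot go below p = 0.333.

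The size of the change rested on the sh-NC cultures. In sh-NC, culture 2 had the higher IP over input for 8 of 8 members, by 0.13 to 0.36 on the log2 scale, as it had for 78.7% of the 253 other abundant genes and 51.2% of all genes. In shMETTL14, culture 2 was higher for 7 of 8, all but NPM1. The median log2 difference there, culture 2 minus culture 1, was 0.07 for members, -0.02 for the 253 abundant genes and -0.01 for all genes. Without sh-NC culture 1 all 8 members were called lower, with changes from -0.39 for ANP32B to -0.18 for SET, and 116 of all genes were called lower. Without sh-NC culture 2 none was called, beside 7 of all genes. The changes then ran from -0.09 for ANP32A to 0.03 for NPM1, with 7 of 8 below 0, beside a median of 0.00 over all genes. Without shMETTL14 culture 1 or culture 2 the members' median was -0.11 or -0.19, with all 8 below 0. The median of all genes was -0.01 or 0.00. The IP library of sh-NC culture 1 was the deepest at 47205265 counts, and that of culture 2 held 32533721. The part of depth or IP yield in these values was not tested.

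**Figure D3:**
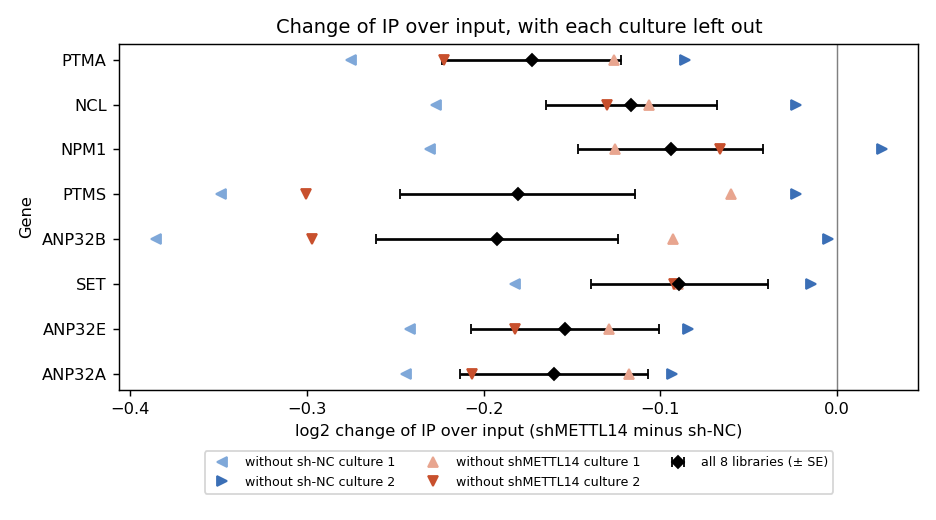
Log2 change of IP over input (shMETTL14 minus sh-NC) for each gene from all 8 libraries (diamonds, bars ± SE) and from fits lacking 1 culture each (triangles). Leaving out sh-NC culture 1 moves every gene to the left, and leaving out sh-NC culture 2 moves every gene toward or past 0.

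The abundant genes, a comparison set chosen after the values were seen, also moved with these cultures but less. From all 8 libraries the 253 other abundant genes had a median change of -0.01, with 10th and 90th percentiles of -0.10 and 0.07, and 60.1% were below 0. Without sh-NC culture 1 their median was -0.07 and 42 of them were called lower, beside a members' median of -0.24. Without sh-NC culture 2 it was 0.02, beside a members' median of -0.02. In the fit to all 8 libraries ANP32A, ANP32B, ANP32E, PTMA, PTMS and NCL lay below the 10th percentile of the abundant genes and SET and NPM1 did not, and without sh-NC culture 2 this held for 3 members. No test was made of this difference.

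**Figure D4:**
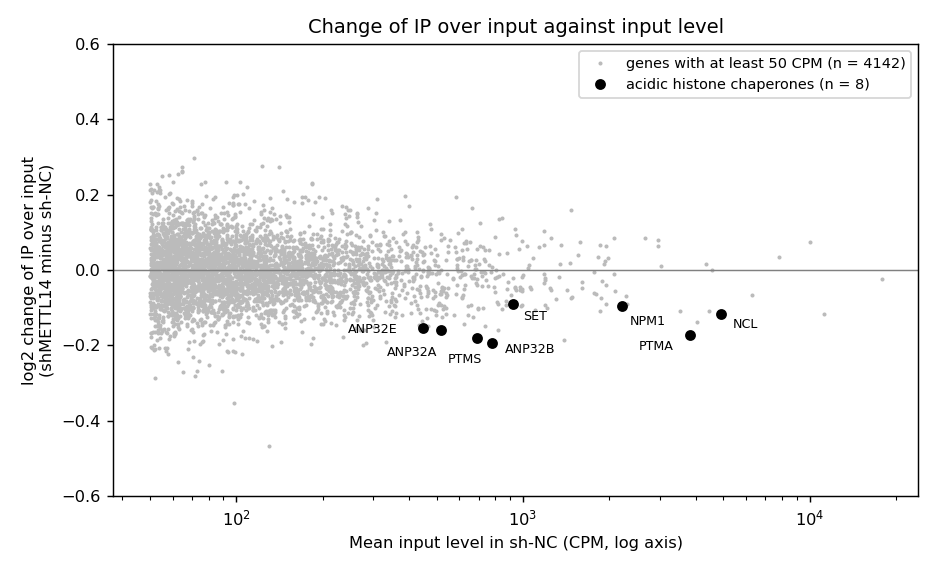
Log2 change of IP over input against the mean sh-NC input level (CPM, log axis) for 4142 genes with at least 50 CPM (grey) and the 8 chaperone genes (black). All 8 black points lie below 0, between -0.19 and -0.09, and SET and NPM1 lie closer to the bulk of the abundant genes than the other 6 do.

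Several of these genes have many processed pseudogenes, whose near-identical sequence can take or give reads. The table listed 45 copies of NPM1, whose counts came to 8.01 to 10.6% of those of NPM1 itself in a library. The most counted was NPM1P27 with 37684 counts over all libraries. SET had 20 listed copies at 2.80 to 4.97% of its counts and PTMA had 7 at 2.48 to 2.91%, led by PTMAP5 with 16070 and PTMAP2 with 14083 counts. ANP32A, ANP32B and NCL had 2 or 3 copies each and stayed under 1%, and no copy of PTMS or ANP32E was listed. In sh-NC the copies' share was higher in input than in IP, 10.3% against 8.17% for NPM1 and 4.37% against 3.02% for SET. Summed, these copies thus had a lower IP over input than their parents as counted. Single copies lay on both sides. Log2 values in sh-NC were 0.54 for NPM1P27 and 0.94 for NPM1P19, beside 0.73 for NPM1. They were 0.08 for PTMAP5 and 0.54 for PTMAP2, beside 0.43 for PTMA. Adding the copies to their parent changed no call of a member. How the authors' counting split such reads is not given in the sources used here.

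Histone chaperones outside this acidic set were compared through a list of 33 genes, of which 32 were tested in input. Like the lists below, it was drawn up with earlier results of these data known. In input 11 were higher in shMETTL14, 7 were lower and 14 did not pass, where 11.7% of all genes were called higher and 12.3% lower. The largest rises were those of CABIN1, a partner of the HIRA chaperone complex, with a log2 difference of 0.56 (edgeR adjusted p = 1.68e-10), and of the nucleosome assembly family genes TSPYL2 at 0.52 and TSPYL4 at 0.39. The largest falls were those of CHAF1B, a subunit of chromatin assembly factor 1, at -0.44 (adjusted p = 1.81e-05), of the nucleosome assembly gene NAP1L1 at -0.41 and of the histone-binding gene RBBP7 at -0.32. NAP1L1, itself an abundant transcript, went from 843 ± 45.3 to 633 ± 9.86 CPM (SD, n = 2), a larger log2 difference in size than that of any of the 8 acidic genes. Without shMETTL14 culture 2 these counts were 4 higher and 3 lower, and with no filter 7 and 4.

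In sh-NC, 19 of the 33 other chaperones were called above 0 for IP over input and 10 below, beside 29.1% and 29.8% of all genes. Their median was 0.35, beside 0.42 for the 8 acidic genes. The list was wide, from NAP1L3 at 1.40 and NAP1L5 at 1.23 to RBBP4 at -0.65 and the H3-H4 chaperone ASF1B at -1.19, and all 8 acidic genes lay within this range. In shMETTL14, 19 were called above and 9 below, beside 28.9% and 29.1% of all genes, with a median of 0.33. For the change between the arms 25 of 33 were below 0, where 50.4% of all genes were, with a median of -0.03. At an unadjusted p under 0.05, 1 was lower, beside 3.31% of all genes, and 0 were called after adjustment by edgeR.

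Partners and enzymes tied to the members formed a list of 27, with histones, PP2A subunits and the members of the SET complex. In input 2 were higher and 6 lower, beside 11.7% and 12.3% of all genes. The linker histone gene H1F0, a ligand of prothymosin, had a log2 difference of 0.26 and NME1, a nuclease of the SET complex, one of 0.24. HMGB2, also of the SET complex, was at -0.24, NFE2L2, whose repressor KEAP1 binds prothymosin alpha, at -0.19, and H2AFZ, which encodes the H2A.Z that ANP32E removes, at -0.18. H2AFZ and ANP32E were thus both lower in shMETTL14, at -0.18 ± 0.0456 and -0.13 ± 0.0321. In IP over input of sh-NC, 10 of the 27 were called above 0, led by DEK at 0.80 and H1F0 at 0.69. Another 11 were called below 0, down to H2AFZ at -1.22 and the PP2A scaffold gene PPP2R1A at -1.43. Over all genes 29.1% were called higher and 29.8% lower. The median change between arms was 0.02 and none was called, with 1 lower and 2 higher at an unadjusted p under 0.05. Without shMETTL14 culture 2 the input counts of this list were 1 higher and 0 lower.

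Nucleolar ribosome factors, which work beside NPM1 and NCL, formed a list of 30. In input 11 were higher and 4 lower, beside 11.7% and 12.3% of all genes. PES1 at 0.23, NOP2 at 0.22 and UTP14A at 0.18 were the largest rises, and NOP56 at -0.17, GLTSCR2 at -0.18 and NOLC1 at -0.49 the largest falls. NOLC1, a nucleolar phosphoprotein with acidic runs of its own, went from 958 ± 23.0 to 683 ± 0.424 CPM (adjusted p = 1.52e-11), the largest fall in this list. NCL at -0.10 and NPM1 at 0.00 lay between these. In IP over input of sh-NC, 18 were called above 0 and 6 below, beside 29.1% and 29.8% of all genes. The median was 0.26. Values ranged from SURF6 at 0.97 and UTP14A at 0.94 to WDR12 at -0.54 and the rRNA methylase gene FBL at -0.62. NPM1 at 0.73 was thus in the upper part of this range. The median change was 0.00 and none was called, with 2 lower at an unadjusted p under 0.05. Without shMETTL14 culture 2 the input counts were 1 higher and 1 lower.

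The genes whose log2 CPM over the 8 libraries followed each member most closely were sought among 4187 genes with a mean of at least 50 CPM. IGBP1, a PP2A-binding protein gene, came first for both PTMA (Pearson r = 0.988) and ANP32A (r = 0.987). CHAF1A was first for SET (r = 0.996), SRP14 for NCL (r = 0.995), PTPN18 for NPM1 (r = 0.999), CANX for PTMS (r = 0.990), PLEKHA4 for ANP32E (r = 0.993) and STAMBP for ANP32B (r = 0.922). The 8 libraries are 4 pairs of IP and input matched by number, in 4 groups, so the points are not taken as independent and no p is given. IGBP1 itself had a log2 input difference of 0.11 and a change of IP over input of -0.21.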

How the data were processed

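The authors deposited raw counts per gene for 8 MeRIP-seq libraries of SK-N-BE(2), with gene positions and merged exon lengths. The submitters' processing notes name Trimmomatic 0.36 and GRCh38, while the aligner, the counter, its strand setting and the use of the unique molecular identifiers are not given in the sources used here. The table held 0 columns that matched no sample, and no columns of the authors' own comparisons.

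Counts were filtered with filterByExpr, scaled by TMM and tested over all genes with the quasi-likelihood test of edgeR 4.0.16 in R 4.3.3, calling genes at a Benjamini-Hochberg adjusted p under 0.05. The input comparison used the 4 input libraries, and the other contrasts 1 model of 8 libraries with 4 group means. CPM used TMM factors, so a shift common to all genes is removed. The fits were tested on simulated data. The alternatives were no filter, RLE factors, library size alone, DESeq2 1.42.0, a replicate block, pseudogene counts added to their parents, and leaving out each culture.

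The members and lists were chosen with earlier results of these data known. From each list the 3 largest rises and falls in input and the 2 highest and lowest values of IP over input in sh-NC are named, among called genes that averaged 50 counts or more and moved one way in both numbered pairs. Replicate libraries differed by more than sampling noise, with a chi-square of 2.43 to 4.00 per gene.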

Additional observations from a re-analysis of the deposited data

How the results depend on the processing

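The 8 members kept their direction and calls with RLE factors, with DESeq2 apart from the sh-NC IP over input of ANP32B (0.26, not called), and with pseudogene counts added. With no filter on low counts, 1 member was called higher and 0 lower in input, and 3 (PTMA, PTMS and ANP32B) were called lower in the change of IP over input. Over all genes these settings called 1082 higher and 1072 lower of 37399 in input, and 12 lower of 39706 in the change. Leaving out 1 culture at a time gave 1 to 3 members higher and 0 to 3 lower in input, and 0 to 8 lower in the change, where 656 to 2366 of all genes were higher and 925 to 2590 lower in input and 0 to 116 lower in the change. Scaling by library size alone turned the shMETTL14 IP over input of ANP32B to -0.0537, and it ran from -0.0331 to 0.172 over the left-out cultures. Over the same settings the input difference of SET ran from -0.0491 to 0.0123 and that of NPM1 from -0.0396 to 0.0456, and the change of NPM1 from -0.230 to 0.0256. The cause was not tested.

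With a replicate block on the culture number, 3 members were higher and 2 lower in input, beside 2744 and 2849 of 22245 genes. For the change of IP over input the block was instead each culture within its arm, shared by its IP and input. There 0 members were called, beside 1 of all genes called lower, and the members' median was -0.16. Neither block changed a member's call. The deviations of IP and input of a culture had a correlation over all 22953 genes of -0.03 in sh-NC cultures and -0.01 in shMETTL14 cultures. That of same-numbered inputs was -0.02. Genes of every level count alike in these values, and noise in low counts can hide a pairing. They therefore cannot tell whether the numbers pair the samples. The ratio of each culture rests on the number in the labels, and the main fit of 8 libraries used no pairing.

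The limits are the 2 cultures per arm, ratios over whole genes that locate no methylated site, and a scaling that removes any shift common to all genes.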
